A study of Mus musculus with 6 samples.

Results

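This section describes 10 genes whose transcription is a common readout of signalling through the kinase ERK, taken by their symbols from a count table of 52459 gene symbols: the EGR transcription factor genes Egr1, Egr2 and Egr3, the Sprouty genes Spry1, Spry2 and Spry4, the SPRED genes Spred1 and Spred2, the ETS factor gene Etv5 and the early response gene Ier3. All 10 were in the table and all passed the filter on low counts, which left 15380 genes for testing. The genes were read in 6 RNA-seq libraries of C57BL/6 mouse bone marrow cells grown into macrophages with GM-CSF, a growth factor for myeloid cells. Of these, 3 libraries came from cultures given Piceatannol overnight from day 7, and 3 came from cultures given vehicle instead (control). Piceatannol is a plant stilbene that is widely used to inhibit Syk, a kinase of immune receptors. The sources used here give neither its dose nor the identity of the vehicle, and both groups shared the strain, the growth factor and the time in culture. The labels name no animal, pool or culture for a library, so p-values measure the spread between these libraries, which may be technical.

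As background, growth factor receptors, the GM-CSF receptor among them, load RAS with GTP, RAS recruits the RAF kinases, and RAF, MEK and ERK form a chain in which each kinase phosphorylates the next. ERK then phosphorylates ETS factors that sit beside serum response factor (SRF) on a short DNA element called the CArG box, which switches on immediate early genes such as the EGR genes within minutes. Sprouty and SPRED proteins are induced later and dampen the same route, Sprouty proteins close to the receptor and SPRED proteins at RAS and RAF, so their transcripts are often read as feedback. In macrophages these genes respond to growth factors and to pattern recognition receptors, and many of them also have inputs other than ERK.

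The 10 genes did not move as a block. With piceatannol, 6 fell (Egr1, Egr3, Spry1, Spred1, Spred2 and Etv5), 2 rose (Spry2 and Ier3) and 2 did not pass the test (Egr2 and Spry4), by the quasi-likelihood test of edgeR at a Benjamini-Hochberg adjusted p of 0.05 over all tested genes. Most genes in this comparison passed that threshold: 77.0% of all tested genes were called, 38.8% upward and 38.3% downward, so 8 calls among 10 genes lies near the background. A call with at least a 2-fold change was made for 34.0% of tested genes and for 6 of the 10, of which 4 fell (Egr1, Egr3, Spred1 and Etv5) and 2 rose. The median log2 fold change of the 10 genes was -0.68, against 0.01 over all tested genes. In 9 of the 10 genes, all but Egr2, the piceatannol and control libraries did not overlap in normalised read count, which was also so for 79.0% of tested genes.

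The libraries held 33276569 to 49283203 counts with piceatannol and 43586270 to 58697084 in control, and no library stood apart from its group (Pearson's r of log2 CPM across genes 0.9906 to 0.9954 within groups). CPM below is the count relative to the TMM-scaled library total and serves for comparing 1 gene between libraries. FPKM, deposited by the authors and scaled by gene length as well, serves for comparing genes with each other. The summed level of 9 macrophage markers was 13331 to 14798 CPM with piceatannol and 18788 to 22786 CPM in control. Most of this sum came from Lyz2 (10224 ± 830 CPM with piceatannol and 14876 ± 1791 CPM in control). Of the 9 markers 2 rose and 7 fell, where 38.8% of all tested genes rose and 38.3% fell. Markers of other cells moved too: the summed level of 8 dendritic cell markers was 1814 to 2112 CPM with piceatannol and 6983 to 7872 CPM in control, that of 9 neutrophil and granulocyte precursor markers 34.3 to 41.3 and 256 to 603 CPM, and that of 8 stromal and endothelial markers, with the collagen genes Col1a1 and Col1a2 leading, 614 to 664 and 2237 to 2481 CPM. In these lists 0 rose and 7 fell of the dendritic cell markers, 0 rose and 8 fell of the neutrophil markers, and 2 rose and 4 fell of the stromal and endothelial markers. In the last list the endothelial genes Kdr (73.7 ± 22.3 CPM with piceatannol and 23.5 ± 5.92 CPM in control) and Cdh5 rose. Col1a1, Col1a2, Col3a1 and Pdgfrb fell, and Dcn and the endothelial gene Pecam1 did not pass the test. Mast cell and basophil markers summed to 74.1 to 90.9 CPM with piceatannol and 33.2 to 38.2 CPM in control. Kit was the most abundant of them (74.4 ± 9.40 and 21.5 ± 2.72 CPM), and Mcpt4 was at 0 in every library. Of the 5 tested, only Kit rose, and 4 fell (Cpa3, Mcpt8, Ms4a2 and Gata2). The 7 lymphocyte markers summed to 0.151 to 0.594 and 1.99 to 2.71 CPM, with Ncr1 at 0. Of the 4 tested, 0 rose and 4 fell. Mitochondrially encoded genes took 1.87% to 2.65% of the counts with piceatannol and 0.777% to 0.866% in control. Whether these shifts have a part in the values below was not tested, and in bulk RNA fewer cells of a type and less RNA per cell cannot be told apart.

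**Figure D1:**
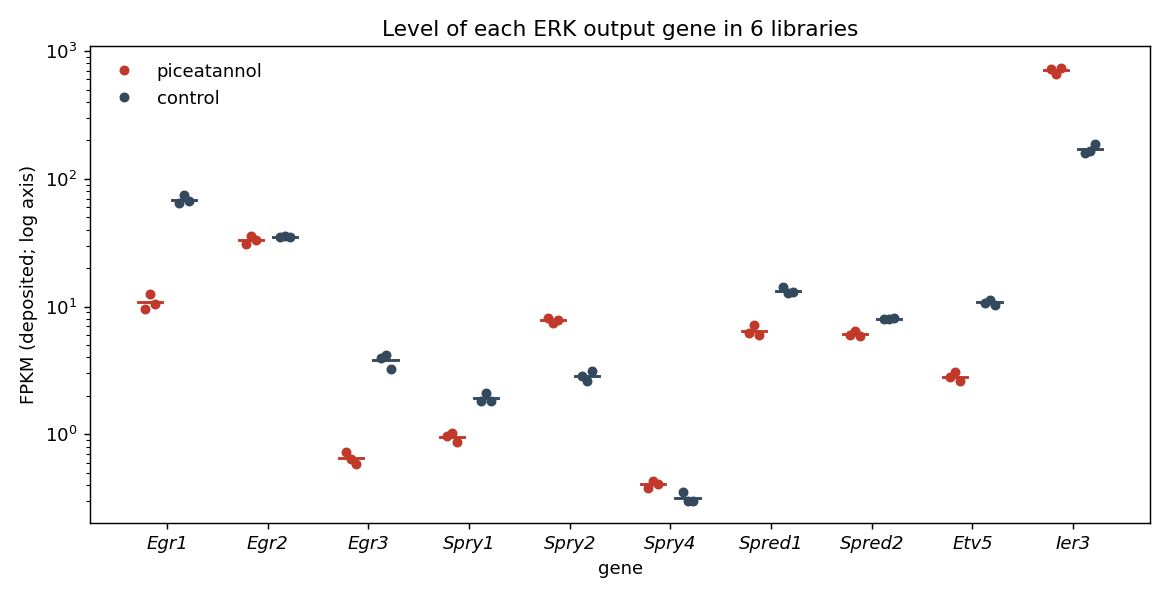
Level of the 10 genes in each library as deposited FPKM on a log axis, with 3 piceatannol libraries (red, left) and 3 control libraries (dark, right) per gene; horizontal lines are group means. Ier3 stands highest in both groups at 708 FPKM with piceatannol and 171 FPKM in control, and Egr1 lies above Egr2 in control but below it with piceatannol.

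Ordered by level per gene length, the piceatannol libraries ran from Ier3 (708 ± 43.5 FPKM) through Egr2 (33.3 ± 2.43), Egr1 (10.8 ± 1.51), Spry2 (7.82 ± 0.366), Spred1 (6.47 ± 0.622), Spred2 (6.11 ± 0.264), Etv5 (2.83 ± 0.217), Spry1 (0.953 ± 0.0802) and Egr3 (0.65 ± 0.0755) to Spry4 (0.407 ± 0.0252 FPKM, SD, n = 3). The control libraries ran from Ier3 (171 ± 15.5 FPKM) through Egr1 (68.7 ± 4.76), Egr2 (35.3 ± 0.472), Spred1 (13.3 ± 0.808), Etv5 (10.8 ± 0.526), Spred2 (8.0 ± 0.0872), Egr3 (3.80 ± 0.492), Spry2 (2.87 ± 0.245) and Spry1 (1.92 ± 0.176) to Spry4 (0.317 ± 0.0289 FPKM, SD, n = 3). Neighbours in these orders had separate ranges of FPKM, except Spred1 and Spred2 with piceatannol, which overlapped. Spry2 stood in place 4 with piceatannol and place 8 in control, the longest move up the order.

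The EGR genes encode zinc finger transcription factors that are made within minutes of a growth signal and then set later gene programmes. They split with piceatannol: Egr1 and Egr3 fell 6.27-fold and 5.75-fold, while Egr2 did not pass the test. Egr1 (chromosome 18, 34859823 to 34864984, plus strand, GENCODE M21 on GRCm38) is the best known immediate early gene of the family. It had 43.7, 56.7 and 47.3 CPM in the piceatannol libraries and 292, 331 and 300.5 CPM in the control libraries. Every control library was thus far above every piceatannol library, with means of 49.2 ± 6.70 and 308 ± 20.4 CPM (piceatannol and control, SD, n = 3 each). Egr1 fell 6.27-fold (log2 fold change -2.65 ± 0.09 SE; adjusted p = 1.74e-13), and 3.37% of tested genes had a lower log2 fold change.

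Egr3 (chromosome 14, 70077203 to 70082614, plus strand), a relative that binds the same DNA sites, was far less abundant. It had 3.28, 2.84 and 2.62 CPM with piceatannol, against 17.5, 18.4 and 14.4 CPM in control. The groups did not overlap, and Egr3 fell 5.75-fold (log2 fold change -2.52 ± 0.13 SE; adjusted p = 4.93e-13). The piceatannol values rest on 94 to 138 counts per library, where counting error alone gives a coefficient of variation of 9.13%. The ratio of Egr1 to Egr3 FPKM was 16.8 ± 3.33 with piceatannol and 18.2 ± 2.15 in control (SD, n = 3 each).

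Egr2 (chromosome 10, 67535475 to 67542188, plus strand), also called Krox20 and known for its roles in myelination and in monocyte and macrophage development, had 107, 123 and 115 CPM with piceatannol. In control it had 119, 121 and 119.6 CPM. The piceatannol libraries lay on both sides of the narrow control range, so the groups overlapped. The log2 fold change was -0.06 ± 0.06 (SE; adjusted p = 0.38), with a 95% interval of -0.19 to 0.07, that is, between 0.878 and 1.05 times the control level. Depth was not the limit here, as the libraries held 4058 to 5627 counts of Egr2 with piceatannol and 5319 to 7066 in control.

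With Egr2 near its control level and both relatives lower, the makeup of the family shifted. Summed over Egr1, Egr2 and Egr3, the family had 44.8 ± 3.87 FPKM with piceatannol and 107.8 ± 5.51 FPKM in control, a ratio of 0.416. Egr2 made up 74.5% ± 1.17 of that sum with piceatannol and 32.8% ± 1.21 in control, and Egr1 made up 24.1% ± 1.30 and 63.7% ± 1.17 (SD, n = 3 each). The ratio of Egr2 to Egr1 FPKM was 3.23, 2.86 and 3.21 in the piceatannol libraries and 0.536, 0.483 and 0.525 in the control libraries. For each of the 3 shares the exact permutation test over libraries gave p = 0.1 (two-sided), the smallest p that 3 libraries against 3 allow.

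The regulatory sequence of Egr2 is shown because Egr2 did not pass the test and is the only EGR gene of the 10 with a promoter window here. The window shown was picked from the Egr2 windows that hold a match to the CArG box. This box is the element through which SRF and ETS factors respond to ERK. Its presence in the window shown therefore follows from that choice. The promoter table from RefSeq (GRCm38.p6), with windows of 250 bases before to 50 bases after a transcription start, held 7 of the 10 genes and not Egr1, Egr3 and Spry4. Of 5 Egr2 starts listed, 4 had a CArG box in their window, but 3 of these windows overlap and hold the same box, so there are 2 distinct boxes. The motif was found in 1.63% of all 32851 windows. The window shown, chr10:67537620-67537919 on the plus strand, has the CArG box at position -73, counted from 0 at the start, and the antioxidant response element core TGACNNNGC, read on the opposite strand, at position -60, both in capitals.
Egr2: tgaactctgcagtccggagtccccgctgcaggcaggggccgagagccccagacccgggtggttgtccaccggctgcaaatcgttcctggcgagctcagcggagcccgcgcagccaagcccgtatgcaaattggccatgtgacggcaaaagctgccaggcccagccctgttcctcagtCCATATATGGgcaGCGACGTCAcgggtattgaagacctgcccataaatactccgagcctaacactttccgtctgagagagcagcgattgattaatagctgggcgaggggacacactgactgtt
The search covered both strands for 7 motifs: the CArG box, the CREB and ATF palindrome TGACGTCA (1.79% of windows), the AP-1 site TGANTCA (7.81%), the EGR site GCGTGGGCG (0.612%), the ETS site CCGGAA (14.9%), the kappaB site (8.46%) and TGACNNNGC (12.4%). Of the Egr2 windows not shown, chr10:67537316-67537615 holds the other CArG box, at position -72, with 3 ETS sites. The window shown had no ETS site, and its start lies 2395 bases from the GENCODE start. The Egr2 window nearest the GENCODE start (24 bases away), chr10:67535249-67535548, had 2 kappaB matches at adjacent positions and no CArG box. A match describes letters in the window and does not show that a factor bound there.

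**Figure D2:**
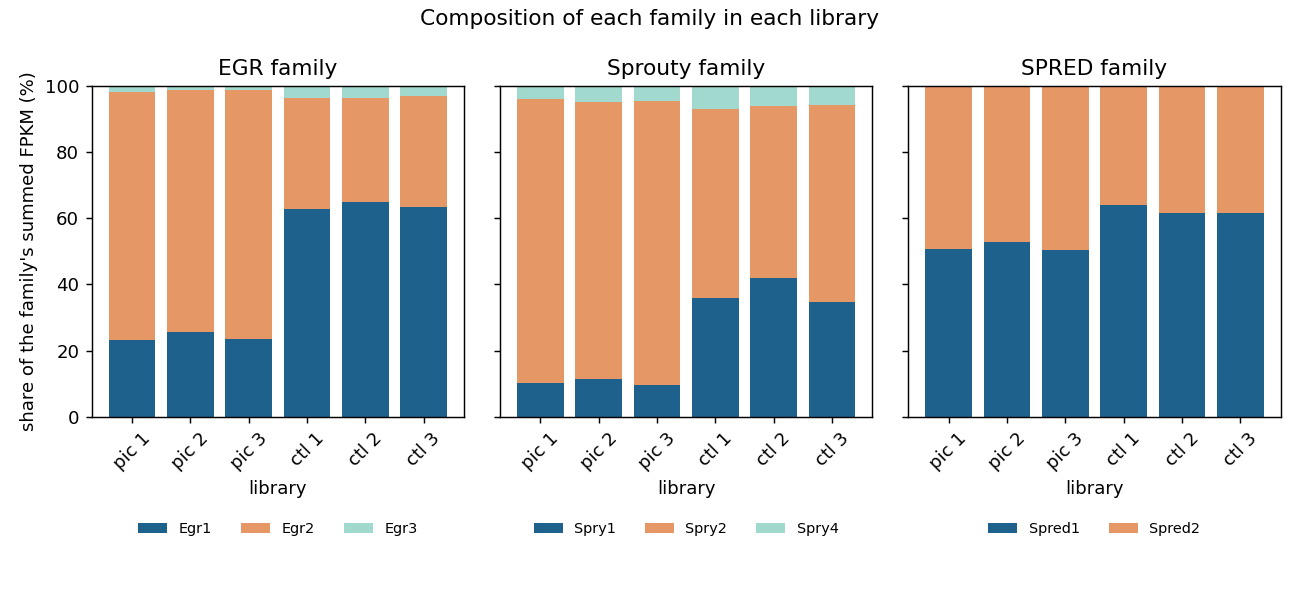
Share of each family's summed FPKM (%, stacked bars) taken by each member in the 3 piceatannol libraries (pic, left) and the 3 control libraries (ctl, right). The SPRED sum holds Spred1 and Spred2 only, without their relative Spred3. Egr2 takes 74.5% of the EGR sum with piceatannol and 32.8% in control, and Spry2 takes 85.2% and 56.2% of the Sprouty sum.

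Sprouty proteins are membrane-bound inhibitors of signalling from receptor tyrosine kinases to RAS and ERK. Their 3 genes went different ways: Spry2 rose, Spry1 fell and Spry4 did not pass the test. Spry2 (chromosome 14, 105891947 to 105896819, minus strand), which encodes a Sprouty that binds the ubiquitin ligase CBL and the adaptor GRB2, had 17.4, 15.7 and 16.5 CPM in the piceatannol libraries. In the control libraries it had 6.00, 5.45 and 6.50 CPM. Every piceatannol library stood above every control library, and Spry2 rose 2.76-fold (log2 fold change 1.47 ± 0.11 SE; adjusted p = 9.43e-11).

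Spry4 (chromosome 18, 38586247 to 38601415, minus strand), which is known to bind RAF kinases, was the least abundant of the 10 genes. It had 1.76, 1.997 and 1.90 CPM with piceatannol and 1.61, 1.37 and 1.37 CPM in control. The lowest piceatannol value lay above the highest control value, yet the difference did not pass the test (log2 fold change 0.38 ± 0.21 SE; adjusted p = 0.106). Its 95% interval was -0.06 to 0.81, that is, between 0.96 and 1.76 times the control level. The libraries held 66 to 93 counts with piceatannol and 60 to 85 in control, where counting error alone gives coefficients of variation of 11.3% and 11.5%, beside a fitted coefficient of 13.0% between libraries.

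Spry1 (chromosome 3, 37639947 to 37644598, plus strand), known as an inhibitor of growth factor signalling in kidney development, had 2.85, 3.03 and 2.56 CPM with piceatannol, against 5.28, 6.13 and 5.28 CPM in control. The groups were apart, and Spry1 fell 1.98-fold (log2 fold change -0.99 ± 0.15 SE; adjusted p = 5.2e-06), just short of a 2-fold change. Gm42922, a transcript model of unknown function on the opposite strand, shares 710 exonic bases with Spry1. It had a mean of 0.7 counts with piceatannol and 1.0 in control, against 100 to 125 and 269 to 312 counts of Spry1.

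The Sprouty sum was 9.18 ± 0.318 FPKM with piceatannol and 5.10 ± 0.101 FPKM in control, a ratio of 1.80. Spry2 made up 85.2% ± 1.32 of it with piceatannol and 56.2% ± 3.87 in control, and Spry1 10.4% ± 1.02 and 37.6% ± 3.93 (SD, n = 3 each; exact permutation p = 0.1 for each share, the smallest possible). The ratio of Spry2 to Spry1 was 8.54, 7.25 and 8.97 in the piceatannol libraries and 1.58, 1.24 and 1.72 in the control libraries, so the shift was several times the spread within a group. The RefSeq windows of the 2 genes are shown since these relatives moved in opposite directions. Spry1 is at chr3:37639697-37639996 on the plus strand and Spry2 at chr14:105896770-105897069 on the minus strand, with motif matches in capitals.
Spry1: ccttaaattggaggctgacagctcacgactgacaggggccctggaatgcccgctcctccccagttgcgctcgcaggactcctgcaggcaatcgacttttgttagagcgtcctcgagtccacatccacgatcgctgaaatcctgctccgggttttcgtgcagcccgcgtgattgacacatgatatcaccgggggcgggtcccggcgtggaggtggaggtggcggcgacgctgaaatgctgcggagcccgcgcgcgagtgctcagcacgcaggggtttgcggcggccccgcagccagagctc
Spry2: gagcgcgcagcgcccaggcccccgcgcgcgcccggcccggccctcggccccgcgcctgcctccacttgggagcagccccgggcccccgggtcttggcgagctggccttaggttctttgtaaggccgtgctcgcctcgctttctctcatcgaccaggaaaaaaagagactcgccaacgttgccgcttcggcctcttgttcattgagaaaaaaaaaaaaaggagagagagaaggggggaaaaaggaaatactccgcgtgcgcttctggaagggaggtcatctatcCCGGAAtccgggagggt
Both windows are rich in G and C (64.3% for Spry1 and 62.7% for Spry2). None of the 7 motifs matched in the Spry1 window, and the Spry2 window had 1 ETS site, at position 33 after the start.

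SPRED proteins share the cysteine-rich tail of Sprouty and hold RAS and RAF inactive, SPRED1 by bringing the RAS off-switch neurofibromin to the membrane. Both genes fell, Spred1 more than Spred2. Spred1 (chromosome 2, 117121374 to 117182279, plus strand) had 42.9, 49.3 and 41.6 CPM with piceatannol and 96.4, 85.9 and 87.6 CPM in control. The 2 ranges were well apart, and Spred1 fell 2.02-fold (log2 fold change -1.02 ± 0.07 SE; adjusted p = 8.61e-11).

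Spred2 (chromosome 11, 19924375 to 20024026, plus strand) had 28.4, 29.9 and 27.7 CPM with piceatannol, against 36.7, 36.6 and 37.5 CPM in control. The groups did not overlap but lay close, and Spred2 fell 1.29-fold (log2 fold change -0.37 ± 0.07 SE; adjusted p = 6.93e-05). Spred3 (4.47 ± 0.194 FPKM with piceatannol and 2.76 ± 0.234 FPKM in control) was left out of the SPRED sum given here. This sum, of Spred1 and Spred2 only, was 12.6 ± 0.884 FPKM with piceatannol and 21.3 ± 0.767 FPKM in control. Spred1 took 51.4% ± 1.29 and 62.4% ± 1.54 of it (SD, n = 3 each, exact permutation p = 0.1, the smallest possible). With piceatannol the 2 genes thus stood at about the same level per length, with Spred1 at 1.03, 1.12 and 1.02 times Spred2, where control libraries had 1.79, 1.6 and 1.59 times.

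Etv5 (chromosome 16, 22381309 to 22439719, minus strand) encodes an ETS transcription factor of the PEA3 group that many tissues induce through fibroblast growth factor and ERK. It had 11.6, 12.7 and 10.98 CPM with piceatannol, against 43.8, 46.3 and 42.3 CPM in control. No control library came near the piceatannol range, and Etv5 fell 3.76-fold (log2 fold change -1.91 ± 0.08 SE; adjusted p = 1.8e-14).

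Ier3 (chromosome 17, 35821684 to 35822923, plus strand), also known as IEX-1, encodes a short-lived early response protein that is an ERK substrate and acts in cell survival. It was the most abundant of the 10 and moved in the opposite direction to Egr1 and Egr3. It had 838, 752 and 849 CPM with piceatannol and 181, 186 and 214 CPM in control. All piceatannol libraries stood well above all control libraries, and Ier3 rose 4.20-fold (log2 fold change 2.07 ± 0.07 SE; adjusted p = 1.74e-15). Its mean level was above that of 99.2% of tested genes with piceatannol and of 93.6% in control. Its RefSeq window, shown as that of the strongest rise, lies at chr17:35821463-35821762 on the plus strand. The kappaB site in capitals, the kind of element bound by NF-kB factors, is at position -92 and reads on the opposite strand.
Ier3: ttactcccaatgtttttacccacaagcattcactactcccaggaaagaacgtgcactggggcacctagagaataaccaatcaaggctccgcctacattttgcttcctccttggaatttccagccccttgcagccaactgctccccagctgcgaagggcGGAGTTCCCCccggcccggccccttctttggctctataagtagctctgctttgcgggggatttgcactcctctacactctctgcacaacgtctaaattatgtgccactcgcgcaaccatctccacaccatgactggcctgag
It was the only match among the 7 motifs in this window, and the windows of Spred1, Spred2 and Etv5 had none.

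**Figure D3:**
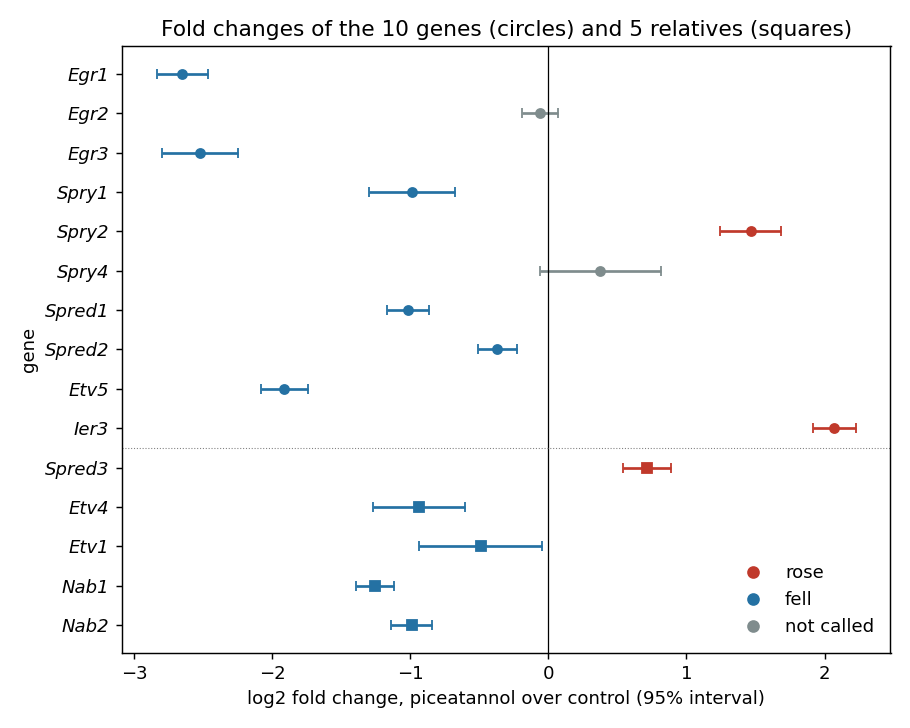
Log2 fold change, piceatannol over control, of the 10 genes (circles) and of 5 relatives and partners (squares), with 95% intervals; red rose, blue fell, grey did not pass the test. Egr1 (-2.65) and Egr3 (-2.52) lie furthest to the left, Ier3 (2.07) furthest to the right, and the intervals of Egr2 and Spry4 include 0.

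Relatives of these genes and the NAB co-repressors, which bind EGR proteins and restrain them, were counted from a list of 7 symbols, of which 5 were tested: 1 rose and 4 fell, and the median log2 fold change was -0.94. Among all tested genes 38.8% rose and 38.3% fell. Nab1 had 31.8 ± 0.495 CPM with piceatannol and 76.0 ± 4.03 CPM in control (log2 fold change -1.26; adjusted p = 5.62e-13). Nab2 had 35.8 ± 3.15 and 71.2 ± 2.44 CPM (-0.99; adjusted p = 9.43e-11), so both co-repressor genes fell with Egr1 and Egr3. Etv4, from the same group of ETS factors as Etv5, had 3.16 ± 0.628 and 5.99 ± 0.611 CPM (-0.94; adjusted p = 2.17e-05). Etv1, the other gene of that group, named after its values were seen, had 2.31 ± 0.595 and 3.24 ± 0.783 CPM (log2 fold change -0.49; adjusted p = 0.0434), and its call was lost without control replicate 1 (adjusted p = 0.216), without control replicate 3 (0.0943), without piceatannol replicate 2 (0.121) and without piceatannol replicate 3 (0.154), with DESeq2 (0.0537) and in other settings. Spred3, unlike Spred1 and Spred2, rose, with 28.2 ± 1.13 CPM with piceatannol and 17.2 ± 1.52 CPM in control (log2 fold change 0.71; adjusted p = 1.47e-07). Egr4 had 0, 2 and 1 counts with piceatannol and 1, 1 and 2 in control, too few to test, and the symbol Spry3 was not in the count table.

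Other genes known to be induced by ERK moved in both directions. Of 20 tested, 9 rose and 9 fell, and the median log2 fold change was 0.15. Among all tested genes 38.8% rose and 38.3% fell, so these counts lie near the background. Among the falls were Ccnd1, the cyclin D1 gene (16.7 ± 2.40 CPM with piceatannol and 400.1 ± 12.2 CPM in control; log2 fold change -4.58), the AP-1 subunit gene Fosb (-2.67) and the early response gene Ier2 (-0.99). Among the rises were Csrnp1, a nuclear early response gene (796 ± 10.6 and 83.6 ± 3.04 CPM; 3.25), Ier5 (2.19) and Dusp4, the gene of a nuclear MAP kinase phosphatase (3.33). Dusp6, which encodes the phosphatase that acts on ERK in the cytoplasm, had 45.7 ± 5.59 CPM with piceatannol and 167 ± 17.5 CPM in control, a log2 fold change of -1.87, close to that of Etv5 (-1.91). Phlda1, another transcript used as a readout of this route, had 99.5 ± 0.832 and 55.1 ± 1.71 CPM and rose (0.85). All 8 had adjusted p-values no higher than 1.85e-10, the value of Dusp6.

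Upstream, transcripts of the route itself also moved in both directions, as did tested genes at large (38.8% rose and 38.3% fell). The list counts here and in the next paragraphs are to be read beside these shares. Of 13 receptor genes, 6 rose and 7 fell (median log2 fold change -0.34). Csf2ra, the ligand-binding chain of the GM-CSF receptor, had 280.3 ± 8.30 CPM with piceatannol and 382 ± 8.93 CPM in control (-0.45). Csf2rb, its signalling chain, had 4114 ± 371 and 2626 ± 112 CPM (0.65), a value that depends on how reads shared with its near-identical neighbour Csf2rb2 were counted. The receptor kinase genes Kit (1.79), Met (1.62) and Igf1r (1.17) rose, and Axl (-3.51), Csf1r (-1.35) and Pdgfrb (-0.81) fell, as log2 fold changes. Kit, Csf1r and Pdgfrb are also among the cell type markers.

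Of 18 adaptor and RAS switch genes, 8 rose and 10 fell (median log2 fold change -0.23). The docking protein gene Gab2 (1.27), the RAS exchange factor gene Sos1 (1.18) and the ubiquitin ligase gene Cblb (0.83) rose, while Rasal3, of a protein that turns RAS off (-2.43), the adaptor gene Shc1 (-0.75) and the ubiquitin ligase gene Cbl (-0.73) fell. Of 17 RAF, MEK and ERK kinase and scaffold genes, 6 rose and 10 fell (median -0.19). Mapk3, the ERK1 gene, had 215 ± 9.40 CPM with piceatannol and 327 ± 16.0 CPM in control and fell (-0.61; adjusted p = 1.61e-08). The ERK-activated kinase gene Mknk2 (1.77) and the RSK kinase gene Rps6ka2 (0.93) rose, and Rps6ka1 (-2.14), Rps6ka3 (-0.88) and Mknk1 (-0.71) fell. These are transcript levels, and the phosphorylation of ERK was not measured.

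Of 9 tested genes for SRF, its co-activators, ETS factors and CREB, 4 rose and 3 fell (median log2 fold change 0.09). Srf had 48.3 ± 0.655 CPM with piceatannol and 71.9 ± 5.11 CPM in control (-0.57; adjusted p = 1.23e-07). Of the ETS factors that partner SRF, Elk1 (-0.75) and Elk3 (-1.40) fell, while Elk4 (0.76), named after its values were seen, rose. Ets1 (33.4 ± 2.46 and 6.80 ± 0.325 CPM; 2.30), Ets2 (0.84) and the SRF co-activator gene Mkl2 (1.11) rose.

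**Figure D4:**
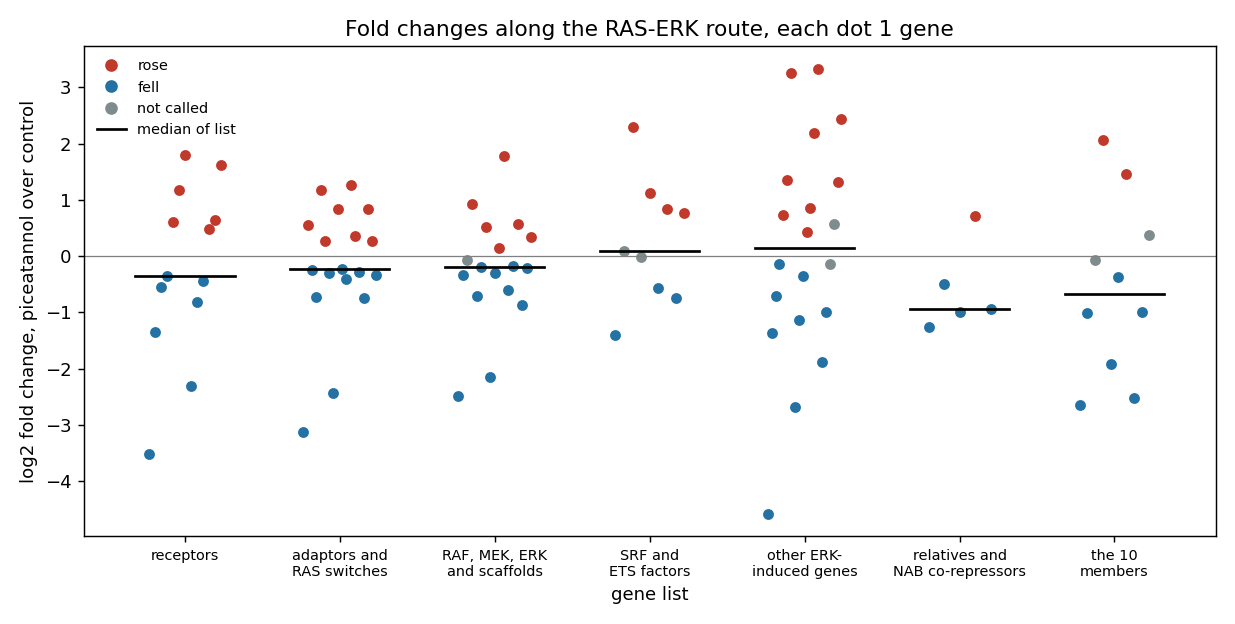
Log2 fold change, piceatannol over control, of each tested gene in the lists from receptors to ERK-induced genes and of the 10 members, with 1 dot per gene and a black line at each list's median; red rose, blue fell, grey did not pass the test. Every list holds genes on both sides of 0, and the medians range from -0.94 (relatives and NAB co-repressors) to 0.15 (other ERK-induced genes).

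For the member of each family with the highest mean CPM over all 6 libraries, the nearest profiles were sought among 10265 tested genes. These had a mean log2 CPM of 2 or more and a symbol that is not a predicted-gene or clone name. Nearness was the root mean square difference over 6 libraries between log2 CPM values centred on each gene's control mean. For Egr1 the nearest genes were Mgl2 (0.0631), Fahd2a (0.0655) and Loxl1 (0.0656). For Spry2 they included P4ha1 (0.0400) and Npc1 (0.0422), and for Spred1 Tpm4 (0.0308), Enc1 (0.0381) and Tlk1 (0.0427). Centring on the mean of all libraries gave the same genes. With 2 groups this measure mostly reflects a similar fold change.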

How the data were processed

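RNA was sequenced in 3 piceatannol and 3 control libraries. Groups came from the labels of each sample. Per the labels' protocols, RNA was extracted with Trizol from frozen cells and 1 µg went into each TruSeq library. Raw counts by gene symbol and FPKM values of the same libraries were both made and deposited by the authors. The submitters' processing notes name bcl2fastq, STAR, featureCounts and DESeq2 and the builds mm10 and GRCm38. The sources used here give no versions, annotation or strand setting, so reads of antisense transcripts cannot be separated.

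The counts were tested in R 4.3.3 with edgeR 4.0.16 after filterByExpr (minimum count 10), TMM scaling and robust quasi-likelihood fitting without covariates (two-sided). Adjustment was by Benjamini and Hochberg's method over all tested genes, with a threshold of 0.05. The SE is the log2 fold change divided by the square root of F, and 95% intervals use the test's degrees of freedom. The script was tested on simulated counts. Positions are from GENCODE M21 (GRCm38), where 91.7% of symbols matched. Alternatives used DESeq2 1.42.0 and limma 3.58.1.

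The members and lists were chosen with earlier results of these data known. Text names all members, up to 3 list genes per direction with the smallest p, 8 listed genes whatever their result, and the nearest profiles. Of the genes that this rule names, 3 are not reported here. The 7 promoter motifs were chosen after the data were seen.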

Additional observations from a re-analysis of the deposited data

How the results depend on the processing

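The calls of the 10 genes (2 rising, 6 falling, 2 not passing) were the same under each alternative in which they were tested: RLE, upper-quartile or no scaling factors, no filter, a filter of 5 CPM in 3 libraries (which removed Spry4), DESeq2, limma-voom, limma on log2(FPKM + 1) and log2(FPKM + 0.1), no mitochondrially encoded genes, an adjusted p threshold of 0.01, and leaving out each library. No direction reversed. Over these settings the log2 fold change ranged from -2.76 to -2.57 for Egr1, from -2.63 to -1.54 for Egr3, from 1.19 to 1.53 for Spry2 and from -1.09 to -0.94 for Spred1, which lies on the 2-fold line. On log2(FPKM + 1) low genes such as Egr3 and Spry1 (-0.58) were pulled towards 0 by the pseudocount. Egr2 ranged from -0.11 to -0.0016 (lowest adjusted p = 0.143) and Spry4 from 0.10 to 0.45 (lowest adjusted p = 0.0667). Across all genes, 2-fold calls numbered 5234, against 2896 with the stricter filter, which tested fewer genes (10531), and 2372 with limma on log2(FPKM + 1). Elk4 was not followed through these settings. Of the other named pathway genes, Etv1 alone lost its call in any of these settings where it was tested. The labels do not say whether equal replicate numbers pair the libraries. Deviations of same-numbered libraries from their group means correlated weakly, at 0.0369, 0.0696 and 0.0654, but 6 of 6 libraries correlated best with their own number. A weak pairing therefore remains possible. With the replicate block, 12012 genes were called in place of 11846, and 8 of the 10 genes as before. Counting error was largest for Spry4, followed by Spry1 and Egr3 with piceatannol.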
